A study of Homo sapiens with 9 samples.

Results

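Syndecans and glypicans are the main families of heparan sulfate proteoglycans held at the cell surface. The 8 genes described here, SDC1, SDC2, SDC3, SDC4, GPC1, GPC3, GPC4 and GPC6, were taken by symbol from the 28514 gene symbols of the count table. Of these 8, 5 had enough counts to be tested, 2 (GPC4 and GPC6) had a count of 0 in all libraries and GPC3 held 2 counts in total. RNA came from CI-huVEC cells, an endothelial line immortalized from human umbilical vein, at passage 31. The 3 groups of 3 libraries were knockout clones 21, 22 and 23 (CCM3 -/-, edited with CRISPR/Cas9 in exon 3) kept for 48 h on fibronectin at 5 µg per square centimetre, the same 3 clones without fibronectin, and wild-type lines 1, 2 and 3 without treatment. The knockout lines are each 1 clone, and wild-type cells on fibronectin were not analysed here. The labels do not say that the libraries of a group came from separate cultures, so p-values measure only the spread between these samples, which may be technical, and clonal origin and genotype cannot be told apart.

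Syndecans cross the membrane once. Their outer part carries heparan sulfate chains, and their short cytoplasmic tail binds PDZ proteins such as syntenin and links the receptor to the actin cytoskeleton. Glypicans are tethered by a glycosylphosphatidylinositol (GPI) anchor and have no cytoplasmic tail. The chains of both families bind growth factors, chemokines and matrix proteins, fibronectin among them, and on endothelium they form part of the glycocalyx, the sugar coat that faces the blood. Syndecan-4 is best known as a partner of integrins at focal adhesions on fibronectin, syndecan-1 as a receptor that is shed from the surface, and glypican-1 as a component of the endothelial glycocalyx.

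Depth was similar among the groups, with total counts per library of 24406001 to 33971610 in knockout clones on fibronectin, 25982627 to 29930894 in knockout clones and 26453753 to 30280241 in wild-type lines. Levels are given in CPM, counts divided by the TMM-scaled library size on the usual per-million basis, unless FPKM (the authors' values scaled to gene length and to depth) is named. PDCD10, the symbol of the edited CCM3 gene in the files, averaged 36.4 ± 1.30 CPM in knockout on fibronectin, 38.5 ± 3.43 CPM in knockout and 49.3 ± 3.49 CPM in wild type (SD, n = 3 each). The transcript was thus lower in knockout but present, and its level alone does not check a small edit in an exon. All 9 endothelial markers examined (PECAM1, CDH5, VWF, TEK, TIE1, CLDN5, ERG, EMCN and ESAM) were above 1 CPM on average in every group. Their summed level was 5620 to 6504 CPM in knockout on fibronectin, 5435 to 5896 CPM in knockout and 2192 to 2432 CPM in wild type. Most of this gap came from VWF, with 2974 CPM in knockout on fibronectin, 2686 CPM in knockout and 325 CPM in wild type, and PECAM1, with 1032 CPM in knockout on fibronectin, 1029 CPM in knockout and 446 CPM in wild type. In knockout against wild type 6 of the 9 rose, 0 fell and 3 were not called by edgeR. Beside VWF and PECAM1, TEK, CLDN5, ESAM and TIE1 rose, with log2 fold changes of 1.85, 1.93, 0.71 and 0.32. CDH5 and ERG had log2 fold changes of -0.06 and -0.10 and were not called. EMCN, also not called there, averaged 10.5 CPM in knockout on fibronectin, 12.8 CPM in knockout and 32.0 CPM in wild type. ERG and EMCN fell in knockout on fibronectin against wild type (adjusted p = 0.00931 and 0.0443, edgeR). The 6 epithelial markers, of which KRT14 and CLDN4 had 0 counts in every group, summed to 1.07 to 1.40 CPM in knockout on fibronectin, 0.619 to 1.11 CPM in knockout and 0.369 to 0.657 CPM in wild type. The 6 leukocyte markers, of which MS4A1 had 0 counts in every group, summed to 2.19 to 3.59 CPM in knockout on fibronectin, 1.38 to 2.49 CPM in knockout and 0.135 to 0.230 CPM in wild type. The 3 tested, CD14, LYZ and ITGAM, rose in knockout against wild type. They passed the filter on low counts through the knockout libraries, so their rise is a description only. Of 8 smooth muscle and pericyte markers, 4 (ACTA2, RGS5, TAGLN and MCAM, the last also an endothelial gene) averaged over 1 CPM in every group, with a sum of 1401 to 1503 CPM in knockout on fibronectin, 1340 to 1505 CPM in knockout and 1126 to 1297 CPM in wild type. That sum is nearly all MCAM, with 1427 CPM in knockout on fibronectin, 1425 CPM in knockout and 1083 CPM in wild type. ACTA2 averaged 4.52 CPM in knockout and 3.81 CPM in wild type and was not called (log2 fold change 0.25, adjusted p = 0.122, edgeR). RGS5 and TAGLN went the other way. RGS5, a pericyte marker, fell to 4.21 ± 0.316 CPM in knockout on fibronectin and 5.42 ± 0.477 CPM in knockout, against 85.5 ± 4.66 CPM in wild type. TAGLN, a smooth muscle marker, fell to 25.9 ± 6.10 CPM in knockout on fibronectin and 11.2 ± 0.408 CPM in knockout, against 44.7 ± 2.73 CPM in wild type (SD, n = 3 each), so both were lower in knockout together with the syndecans. DES had 0 counts in both groups without fibronectin. Of 7 fibroblast markers 1, FAP, averaged over 1 CPM and LUM had 0 counts in every group, with a sum of 4.85 to 33.2 CPM in knockout on fibronectin, 5.80 to 44.9 CPM in knockout and 8.54 to 9.69 CPM in wild type. In knockout against wild type 2 of the 4 tested fell, COL1A2 and COL3A1, and FAP and PDGFRA were not called. COL1A2 and COL3A1 passed the filter on low counts through the wild-type libraries, so their fall is a description only. The part of these markers in the results below was not tested. In bulk RNA, fewer cells of a type and less RNA per cell cannot be told apart.

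The first comparison, knockout clones against wild-type lines, shows how the proteoglycan genes differed between these clones and lines. All 4 syndecan genes fell, SDC2 to a few counts, SDC3 to nearly the same level in each clone, and SDC1 and SDC4 by smaller amounts. GPC1 was lower in each knockout clone than in each wild-type line, but by very unequal amounts among the clones, and did not pass the test. Of the 8 genes, 4 fell, 0 rose, 1 was not called and 3 were not tested. SDC2, among the 4, entered the test only through the wild-type libraries. By the same test, edgeR's quasi-likelihood F test with an adjusted p under 0.05, 27% of 13802 genes fell, 23% rose and 50.1% changed in either direction. Each of the 5 tested genes had all knockout values below all wild-type values, as had 33.3% of all tested genes, and 61.5% did not overlap in either direction.

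SDC4, the syndecan of focal adhesions, was the most abundant member. Its level was 26.6, 26.7 and 29.4 CPM in clones 21, 22 and 23 on fibronectin, 24.4, 24.9 and 28.8 CPM in the same clones without it, and 42.8, 40.5 and 45.2 CPM in wild-type lines 1, 2 and 3. Clone 23 was the highest clone in both conditions, and it still lay well under the lowest wild-type line. SDC4 fell 1.64-fold in knockout against wild type (log2 fold change -0.72, SE 0.08, adjusted p = 6.82e-06).

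SDC3, a syndecan with a long extracellular part that is best known from nervous tissue, fell further. Its level was 10.5, 12.1 and 11.7 CPM in the clones on fibronectin, 10.9, 11.1 and 11.1 CPM in the clones without it, and 33.7, 36.9 and 29.6 CPM in wild-type lines. The 3 knockout clones were nearly equal, while the wild-type lines spread more widely. SDC3 fell 3.03-fold in knockout against wild type (log2 fold change -1.60, SE 0.09, adjusted p = 1.23e-08), and 4.59% of all tested genes had a lower log2 fold change.

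SDC1, known as the plasma cell and epithelial syndecan CD138, was low in all groups. It had 1.73, 2.11 and 2.04 CPM in the clones on fibronectin, 1.61, 2.66 and 1.91 CPM in the clones without it, and 4.06, 4.14 and 3.15 CPM in wild-type lines, from 42 to 123 counts per library. The highest knockout value, in clone 22, came closest to the lowest wild-type value without reaching it. SDC1 fell 1.83-fold (log2 fold change -0.87, SE 0.20, adjusted p = 0.00222).

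SDC2, the syndecan of mesenchymal and endothelial cells, was close to silent in every knockout library. Its counts were 3, 5 and 2 in the clones on fibronectin, 3, 3 and 3 in the clones without it, and 199, 193 and 220 in wild-type lines. That is 0.125 ± 0.0753 CPM in knockout on fibronectin, 0.108 ± 0.00717 CPM in knockout and 7.02 ± 0.463 CPM in wild type (SD, n = 3 each), and a difference among the clones was not detectable at this depth. SDC2 fell with a log2 fold change of -5.97 (SE 0.26, adjusted p = 6.32e-10), and 0.464% of all tested genes had a lower one. Summed over each group, the 9 knockout counts and 612 wild-type counts give a level 65.0-fold lower in knockout, with a 95% exact interval of 34.01 to 143 that covers counting error only. SDC2 passed the filter on low counts only through the wild-type libraries, where it is high. Its p-value and rank are thus a description only.

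GPC1, the glypican of vascular endothelium, differed widely among the clones. Its level was 2.73, 4.76 and 8.55 CPM in clones 21, 22 and 23 on fibronectin, 1.72, 5.76 and 6.37 CPM in the same clones without it, and 11.7, 12.7 and 10.01 CPM in wild-type lines. Clone 21 was the lowest and clone 23 the highest in both conditions, and clone 23 on fibronectin came nearest to wild type. In knockout against wild type its log2 fold change was -1.30 (SE 0.51, 95% interval -2.50 to -0.11, adjusted p = 0.0686), 2.47-fold lower. In the authors' deposited table GPC1 had a log2 fold change of -0.92 with an adjusted p of 0.0471. Without clone 21 in both conditions, an alternative chosen after the values were seen, it was called in knockout against wild type at a log2 fold change of -0.89 (adjusted p = 0.00704), and also without clone 23 on fibronectin, which enters through the shared spread (-1.27, adjusted p = 0.0327). Of 19 alternatives 4 called it and 15 did not, with adjusted p up to 0.154.

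**Figure D1:**
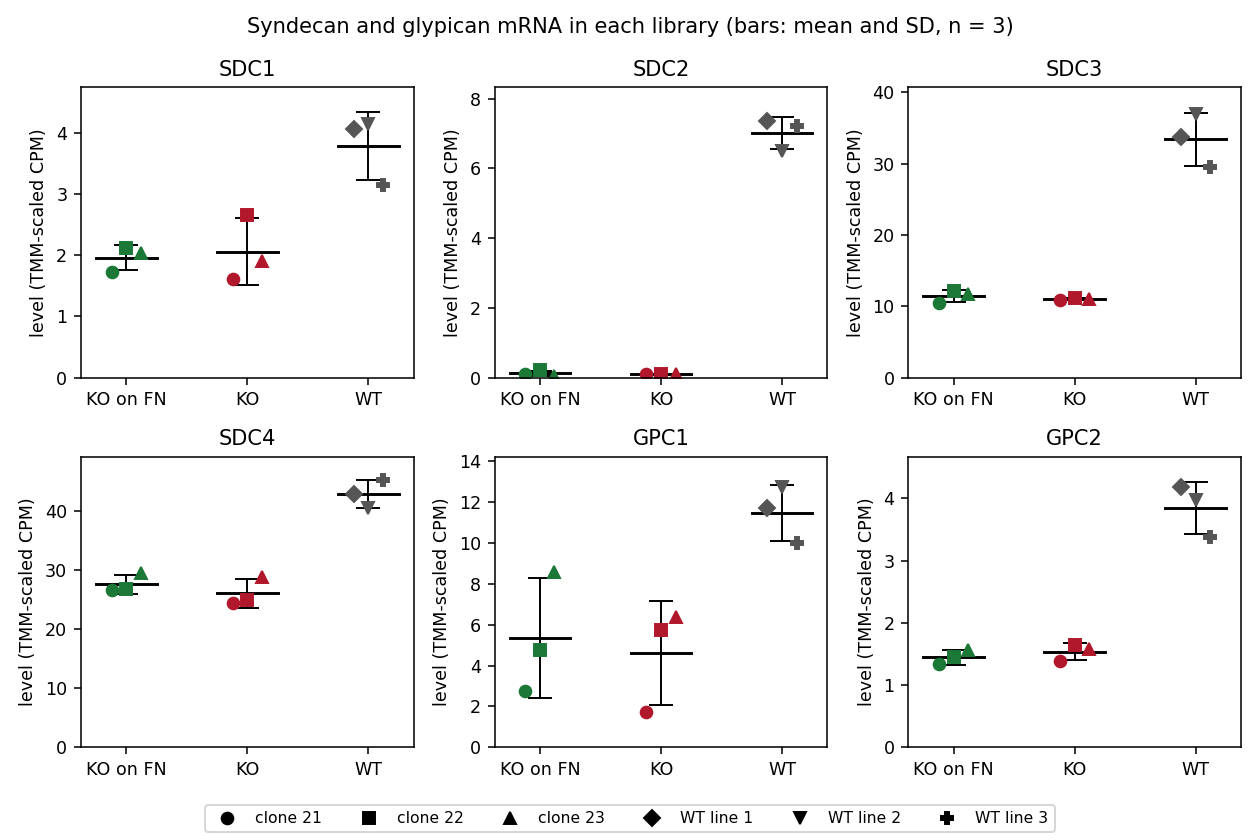
Level in TMM-scaled CPM of the 4 syndecan genes, GPC1 and GPC2 in each library, with knockout clones on fibronectin (KO on FN) at the left, knockout clones (KO) in the middle and wild-type lines (WT) at the right. Symbols mark clones and lines, bars the mean and SD of 3 libraries. In every panel all knockout points lie below all wild-type points, and GPC1 runs from 1.72 to 6.37 CPM among the knockout clones.

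The other glypicans were at or near 0. GPC4 and GPC6 had 0 counts in all 9 libraries, which allows at most 0.0350 CPM in knockout on fibronectin, 0.0360 CPM in knockout and 0.0344 CPM in wild type at a floor of 3 counts over each group. GPC3, a glypican of embryonic and liver tissue that binds Hedgehog proteins, had 2 counts in clone 21 on fibronectin and 0 in the other 8 libraries. The remaining glypicans of the human genome, GPC2 and GPC5, are not among the 8 genes but complete the family. GPC5 had 0 counts in knockout on fibronectin, 2 in knockout and 6 in wild type. GPC2 averaged 1.45 ± 0.119 CPM in knockout on fibronectin, 1.53 ± 0.137 CPM in knockout and 3.84 ± 0.412 CPM in wild type (SD, n = 3 each). GPC2 fell 2.50-fold in knockout against wild type (log2 fold change -1.32, SE 0.16, adjusted p = 1.60e-05).

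Per gene length, the members kept most of their order but not their proportions. In FPKM, wild-type lines had 14.0 ± 0.671 for SDC4, 4.46 ± 0.527 for SDC3, 2.66 ± 0.339 for GPC1, 1.72 ± 0.113 for SDC2 and 0.982 ± 0.152 for SDC1 (SD, n = 3 each), and none of these neighbours overlapped. Knockout clones had 8.39 ± 0.757 FPKM for SDC4, 1.45 ± 0.0166 for SDC3, 1.05 ± 0.575 for GPC1, 0.527 ± 0.139 for SDC1 and 0.0260 ± 0.00200 for SDC2 (SD, n = 3 each). There GPC1 overlapped both SDC3 and SDC1, and SDC2 had moved below SDC1. Summed over the 8 genes, FPKM was 11.99 ± 1.35 in knockout on fibronectin, 11.4 ± 1.26 in knockout and 23.8 ± 0.458 in wild type (SD, n = 3 each).

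The proportions of the members differed as well. SDC4 made up 70.2% to 77.4% of the summed FPKM in knockout on fibronectin, 69.7% to 77.7% in knockout and 55.7% to 62.5% in wild type. SDC2 made up 0.104% to 0.423% in knockout on fibronectin, 0.189% to 0.276% in knockout and 6.69% to 7.49% in wild type. SDC3 made up 11.4% to 13.4% in knockout on fibronectin, 11.5% to 14.1% in knockout and 16.7% to 20.7% in wild type. The ranges of these 3 genes in either knockout group did not overlap with those in wild type, whereas those of SDC1 and GPC1 did.

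**Figure D2:**
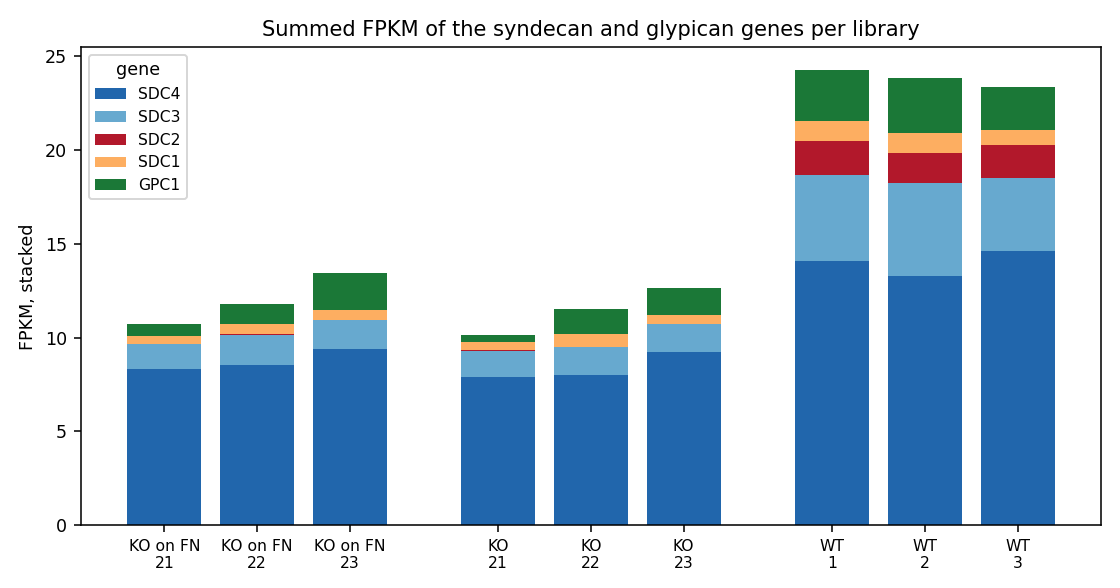
FPKM of SDC4, SDC3, SDC2, SDC1 and GPC1 stacked for each library, with knockout clones on fibronectin (KO on FN) at the left, knockout clones (KO) in the middle and wild-type lines (WT) at the right. The summed height averages 11.99 FPKM in KO on FN, 11.4 FPKM in KO and 23.8 FPKM in WT, and the SDC2 segment is visible in wild type only.

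The promoters of SDC3 and SDC4, which fell in all clones, and of GPC1, which differed among clones, are shown as the sequence in front of these transcripts. SDC1 also fell in all clones and is not shown. RefSeq promoters on GRCh38.p14 were found for 6 of the 8 genes, with none for SDC2 and GPC3. Each sequence below is the 250 bases before the annotated start, 5′ to 3′ on the strand of the gene. Capitals mark CACCC or its reverse complement GGGTG, the core that KLF transcription factors bind. The 3 sequences are SDC3 at chr1:30908759-30909008 (minus strand), SDC4 at chr20:45348425-45348674 (minus strand) and GPC1 at chr2:240435413-240435662 (plus strand).
SDC3: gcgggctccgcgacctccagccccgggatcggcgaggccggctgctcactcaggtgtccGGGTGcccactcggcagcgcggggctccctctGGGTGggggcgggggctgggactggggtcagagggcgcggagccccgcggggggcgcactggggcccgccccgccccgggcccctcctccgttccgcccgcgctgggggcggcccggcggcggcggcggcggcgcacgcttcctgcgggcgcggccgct
SDC4: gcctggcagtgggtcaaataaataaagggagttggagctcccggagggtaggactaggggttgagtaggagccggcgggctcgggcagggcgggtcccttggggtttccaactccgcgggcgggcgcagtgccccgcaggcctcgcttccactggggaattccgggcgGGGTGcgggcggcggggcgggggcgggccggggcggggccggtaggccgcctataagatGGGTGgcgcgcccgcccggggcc
GPC1: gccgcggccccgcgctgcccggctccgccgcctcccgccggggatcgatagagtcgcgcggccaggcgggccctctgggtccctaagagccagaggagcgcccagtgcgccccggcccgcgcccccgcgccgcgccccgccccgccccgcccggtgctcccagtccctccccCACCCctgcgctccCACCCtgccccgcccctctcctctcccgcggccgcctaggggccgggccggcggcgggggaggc
Each of the 3 held 2 CACCC matches on either strand. Of 35116 RefSeq promoters of the same length 54.7% held at least 1, with a median of 1 match, and the share with 2 or more was not counted. The GC-box core GGGCGG, counted on both strands, matched 5 times in SDC3, 8 times in SDC4 and 4 times in GPC1. Of those promoters 42.6% held at least 1 match, with a median of 0. In SDC4, 1 base was shared by matches of both motifs. All 3 were rich in G and C, with 83.6% in SDC3, 73.6% in SDC4 and 84.0% in GPC1, against a median of 58% over all promoters. A match is a description of the letters and not a binding site.

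The second comparison, knockout clones on fibronectin against wild-type lines, uses the same wild-type libraries as the first. Of the 8 genes 4 fell, 0 rose, 1 was not called and 3 were not tested, where 29.6% of all tested genes fell, 29% rose and 58.7% changed in either direction. SDC2 had a log2 fold change of -5.85 (SE 0.26, adjusted p = 5.83e-10) on fibronectin, beside -5.97 without it. SDC2 again entered the test only through the wild-type libraries, so its call is a description only. SDC3 had -1.54 (SE 0.09, adjusted p = 1.50e-08), beside -1.60. SDC1 had -0.95 (SE 0.20, adjusted p = 0.00103), beside -0.87. SDC4 had -0.63 (SE 0.08, adjusted p = 1.69e-05), beside -0.72. All 4 syndecan genes thus stayed low on fibronectin, with every value below every wild-type value, as for 32.7% of all tested genes, and 64.3% did not overlap in either direction.

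For GPC1 on fibronectin the log2 fold change from wild type was -1.08 (SE 0.50, 95% interval -2.26 to 0.09, adjusted p = 0.101). It was called without clone 21 in both conditions (-0.74, adjusted p = 0.0152), without clone 23 on fibronectin (-1.62, adjusted p = 0.0232) and without the untreated clone 21 (-1.06, adjusted p = 0.0353). Without clone 21 on fibronectin alone it was not called (-0.75, adjusted p = 0.268), and of 19 alternatives 5 called it and 14 did not. The authors' deposited table gives -0.88 with an adjusted p of 0.0533. GPC2 fell on fibronectin with a log2 fold change of -1.40 (SE 0.16, adjusted p = 7.99e-06).

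**Figure D3:**
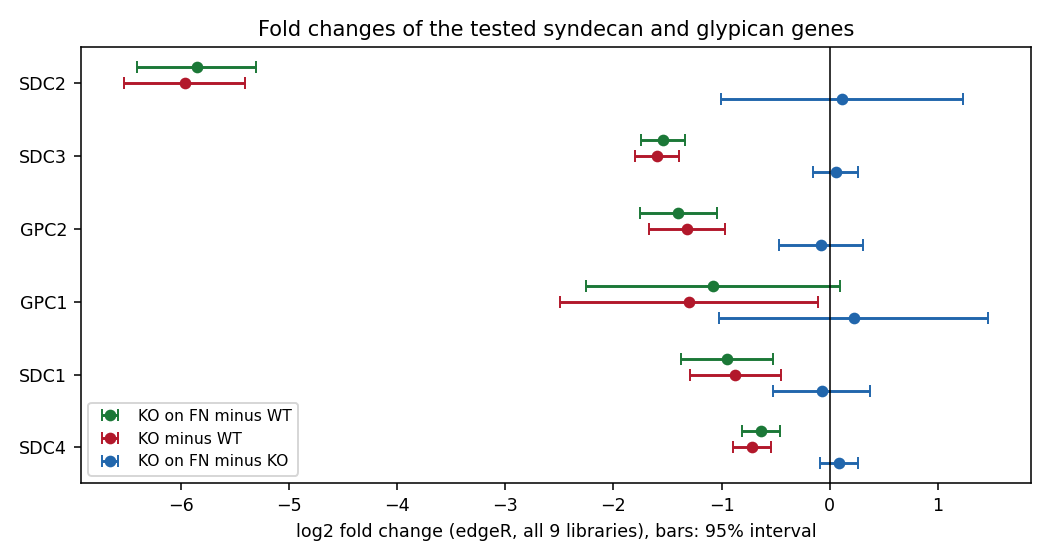
Log2 fold changes with 95% intervals from edgeR for the 5 tested members and GPC2, for knockout on fibronectin minus wild type, knockout minus wild type and knockout on fibronectin minus knockout. The points for both comparisons with wild type lie left of 0 for every gene, and all intervals for fibronectin in knockout clones include 0.

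The third comparison, the same clones on fibronectin and without it, asks whether the added matrix protein moved these genes. By edgeR 0 of the 5 tested members were called and 0 had an unadjusted p under 0.05, and DESeq2 and limma called 0 as well. DESeq2 gave no adjusted p for SDC1 and SDC2, so it could not call them. With DESeq2 0 members had an unadjusted p under 0.05. Over all genes edgeR called 0.00725% of 13802, which is 1 gene, the smooth muscle marker TAGLN, and it was higher on fibronectin. With the clone as a block, 899 of 13257 genes were called, which is 6.78%, and none of the 4 members tested there (SDC1, SDC3, SDC4 and GPC1) was among them. In each tested member the values with and without fibronectin overlapped, whereas 25.4% of all tested genes did not overlap and 10.6% lay all lower on fibronectin.

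Intervals from the fit without the clone block were as follows. SDC4 had a log2 fold change of 0.08 (95% interval -0.09 to 0.26) and SDC3 of 0.05 (-0.16 to 0.27). SDC1 had -0.07 (-0.52 to 0.38). SDC2 had 0.11 (-1.005 to 1.23), resting on 10 counts on fibronectin and 9 without it, and GPC1 had 0.22 (-1.02 to 1.46). With the clone as a block, which uses the pairing of the groups, the interval of GPC1 narrowed to -0.12 to 0.54 around 0.21 (adjusted p = 0.409), while SDC4 had 0.06 (-0.11 to 0.23), SDC3 0.03 (-0.19 to 0.25) and SDC1 -0.08 (-0.46 to 0.31). SDC4 was higher on fibronectin in 3 of 3 clones, by log2 differences of 0.12, 0.10 and 0.03 in clones 21, 22 and 23. Both of its intervals include 0, and the share of all genes with the same direction in 3 of 3 clones was not counted. GPC1 was higher in clones 21 and 23, by 0.67 and 0.42, and lower in clone 22, by a log2 difference of -0.27.

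GPC1 was ordered in the same way among clones in both conditions. In a fit to the 6 knockout libraries with clone and fibronectin as terms, chosen after these values were seen, GPC1 differed among the 3 clones (adjusted p = 1.94e-05, edgeR), where 3.79% of 13257 genes did. Its log2 difference was 1.25 for clone 22 over clone 21 and 1.73 for clone 23 over clone 21. The same test did not call SDC1 (adjusted p = 0.510), SDC3 (0.913) or SDC4 (0.556), and SDC2 was too low to be tested there.

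**Figure D4:**
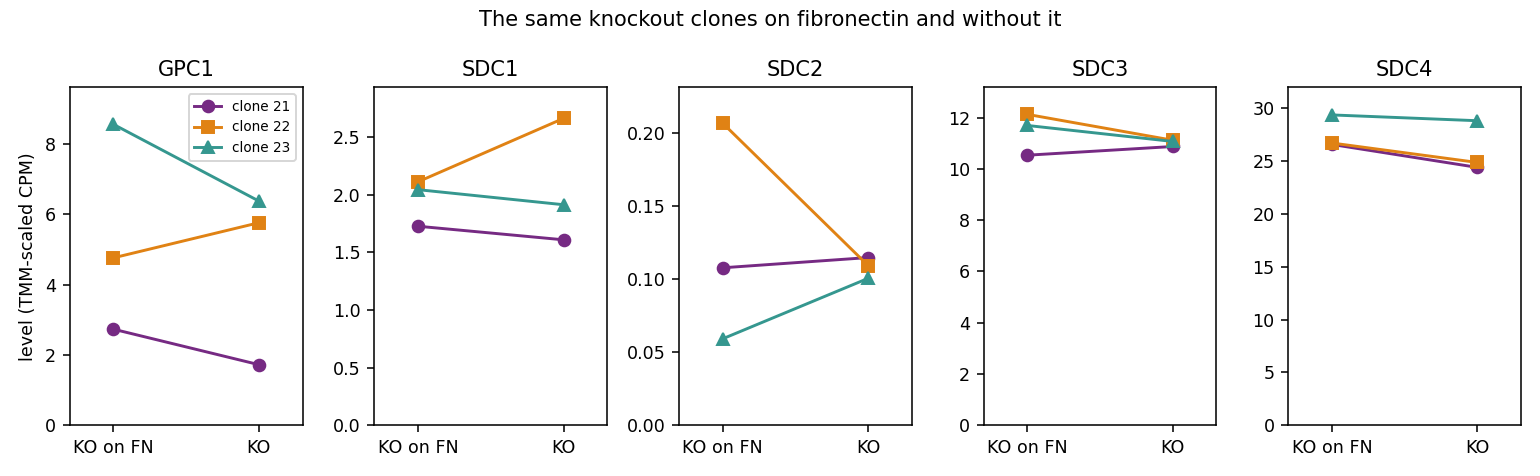
Level in TMM-scaled CPM of 5 genes in knockout clones 21, 22 and 23, on fibronectin (KO on FN) at the left of each panel and without it (KO) at the right, with a line joining the same clone. GPC1 is ordered by clone in both conditions, from 2.73 CPM in clone 21 to 8.55 CPM in clone 23 on fibronectin, and SDC4 is higher on fibronectin in 3 of 3 clones by small amounts. SDC4 was not called between these groups.

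Genes with the most similar profile to each member were named by the smallest root mean square distance between log2 profiles over the 9 libraries, each centred on its own mean, among 9867 genes averaging at least 5 CPM, clone-named and noncoding-type symbols left out. For SDC4 they were SPAG5 (distance 0.07) and NDRG3 (0.08), and for SDC3 PLEKHG2 (0.08) and RNF121 (0.11). SDC1 had KSR1 (0.12) and AGO2 (0.13). For SDC2 the nearest genes were more distant, ATOH8 (0.47) and TMEM47 (0.47). ATOH8, a transcription factor gene, had 0.964 ± 0.249 CPM in knockout and 45.4 ± 1.41 CPM in wild type (SD, n = 3 each). GPC1 had GABBR2 (0.23) and UBXN2B (0.27), which shared its order of clones: GABBR2 had 2.64, 5.43 and 9.29 CPM in knockout clones 21, 22 and 23. These genes were chosen for their profile, so their changes were not tested as support.

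Genes that build, trim and bind heparan sulfate were counted against the share over all tested genes, of which 27% fell, 23% rose and 50.1% were called in knockout against wild type, and 29.6% fell, 29% rose and 58.7% were called on fibronectin against wild type. The called shares of the linkage, modification and shedding lists in knockout were at that of all genes, so their counts are given as a description. Among 16 genes of the linkage region, chain polymerisation and precursor supply, 14 were tested in knockout against wild type, of which 6 fell, 1 rose and 7 were not called, with a median log2 fold change of -0.21, beside -0.03 over all tested genes. EXT1, a subunit of the heparan sulfate polymerase, fell to 80.0 ± 3.32 CPM in knockout, against 115 ± 2.90 CPM in wild type (SD, n = 3 each, log2 fold change -0.53, adjusted p = 4.94e-06). EXT2, the other polymerase subunit, was the gene that rose, to 162 ± 6.13 CPM in knockout, against 139 ± 4.17 CPM in wild type (SD, n = 3 each, log2 fold change 0.23, adjusted p = 0.00534). UGDH, which makes UDP-glucuronic acid, PAPSS2, which makes the sulfate donor, and SLC35D1, a nucleotide sugar transporter, fell with log2 fold changes of -0.49, -0.54 and -0.45. On fibronectin 6 of the 14 fell, 0 rose and 8 were not called.

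Of 18 genes of chain modification 8 were tested, of which 2 rose, 2 fell and 4 were not called, with a median of -0.05. SULF2, an extracellular sulfatase that removes 6-O-sulfate groups from finished chains, rose to 318, 353 and 329 CPM in knockout clones, against 27.2, 28.9 and 26.4 CPM in wild-type lines (log2 fold change 3.60, SE 0.08, adjusted p = 1.37e-12). On fibronectin it was 297, 351 and 307 CPM in the same clones. GLCE, the epimerase that turns glucuronic into iduronic acid, rose with a log2 fold change of 0.67 (adjusted p = 0.00630), and NDST1 and NDST2, which start sulfation, fell with -0.35 (adjusted p = 0.00520) and -0.27 (adjusted p = 0.00845, or 0.0628 without wild-type line 1).

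Of 13 genes of shedding, processing and turnover 8 were tested, of which 2 rose, 2 fell and 4 were not called, with a median of -0.03. MMP14, a membrane protease that can shed syndecan-1, fell to 264 ± 6.13 CPM in knockout, against 496 ± 33.3 CPM in wild type (SD, n = 3 each, log2 fold change -0.91, adjusted p = 4.78e-08). FURIN, the convertase that cleaves glypican precursors, fell with a log2 fold change of -0.48 (adjusted p = 0.000673). GDPD5, a phosphodiesterase that cleaves GPI anchors, rose to 17.9 ± 3.81 CPM in knockout, against 5.97 ± 0.722 CPM in wild type (SD, n = 3 each, log2 fold change 1.58, adjusted p = 4.72e-06), and PLAU, the urokinase gene, rose with 0.60 (adjusted p = 3.80e-06). The heparanase gene HPSE had -0.08 (adjusted p = 0.548), and the sheddase genes ADAM10 and ADAM17 had 0.16 (adjusted p = 0.0962) and -0.10 (adjusted p = 0.253).

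Of 17 genes for partners of the syndecan tail 16 were tested, of which 6 rose, 4 fell and 6 were not called, with a median of 0.14. Over all tested genes 23% rose, 27% fell and 50.1% were called, and the counts are given as a description. SDCBP, which encodes syntenin, rose to 451 ± 36.8 CPM in knockout, against 296 ± 20.9 CPM in wild type (SD, n = 3 each, log2 fold change 0.61, adjusted p = 0.000127). EZR, which encodes the membrane and actin linker ezrin, rose with a log2 fold change of 1.17 (adjusted p = 1.17e-09). CASK, a PDZ scaffold, fell with -0.55 (adjusted p = 5.81e-05) and PRKCA, the kinase that syndecan-4 binds at focal adhesions, with -0.41 (adjusted p = 0.00215).

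Among 15 other proteoglycan and part-time proteoglycan genes 10 were tested, of which 5 fell, 2 rose and 3 were not called, with a median of -0.44. The shares over all tested genes were 27% fallen, 23% risen and 50.1% called. The chondroitin and dermatan sulfate proteoglycan genes VCAN (versican) and BGN (biglycan) fell to 3.19 ± 0.495 and 13.2 ± 4.52 CPM in knockout, against 32.5 ± 2.05 and 233 ± 18.2 CPM in wild type (SD, n = 3 each). CD44, a hyaluronan receptor that can carry chains, fell with a log2 fold change of -0.60 (adjusted p = 5.01e-06), while TGFBR3, the betaglycan gene, rose with 0.92 (adjusted p = 2.24e-07). The basement membrane heparan sulfate proteoglycans HSPG2 (perlecan) and AGRN (agrin) had -0.27 (adjusted p = 0.385) and -0.07 (adjusted p = 0.777).

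Of 35 genes for heparan sulfate binding ligands and their receptors 28 were tested, of which 18 fell, 5 rose and 5 were not called, with a median of -0.45, where 27% of all tested genes fell and 23% rose. Among those that fell, FGF5, SLIT3, LPL and FGFR3 passed the filter on low counts through the wild-type libraries. Among those that rose, HGF passed it through the knockout libraries, with 0.753 CPM in knockout and 0.0676 CPM in wild type. In the knockout libraries alone 24 genes of this list could be tested. The changes of these low genes, HGF included, are thus a description only. FN1, the fibronectin gene, fell to 1406 ± 28.4 CPM in knockout, against 14675 ± 764 CPM in wild type (SD, n = 3 each). HBEGF, a heparin-binding growth factor of the EGF family, fell with a log2 fold change of -2.03 (adjusted p = 6.10e-10). PDGFB, which is held near endothelium by heparan sulfate, fell with -1.52 (adjusted p = 2.16e-09) and TGFB2 with -1.71 (adjusted p = 2.96e-09). On fibronectin 17 of these 28 fell, 7 rose and 4 were not called, where 29.6% of all tested genes fell and 29% rose. In knockout clones on fibronectin against those without it, edgeR called 0 genes of these 6 lists without the clone block. With the block it called 5 of 10 tested genes among the other proteoglycans, where 6.78% of 13257 genes were called: AGRN (log2 fold change 0.39), BGN (0.36) and COL18A1 (0.31) were higher on fibronectin, and NRP1 (-0.34) and SPOCK1 (-0.31) lower. It called 3 of 14 in the linkage list, XYLT2, B4GALT7 and B3GAT3, which encode enzymes of the linkage region and were higher on fibronectin. In the remaining lists it called GLCE (-0.26), ADAM10 (-0.28), GIPC1 (0.40), MDK (0.30) and THBS1 (-0.25), which is 1 of 8, 1 of 8, 1 of 16 and 2 of 24 tested genes of chain modification, shedding, tail partners and ligands.

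**Figure D5:**
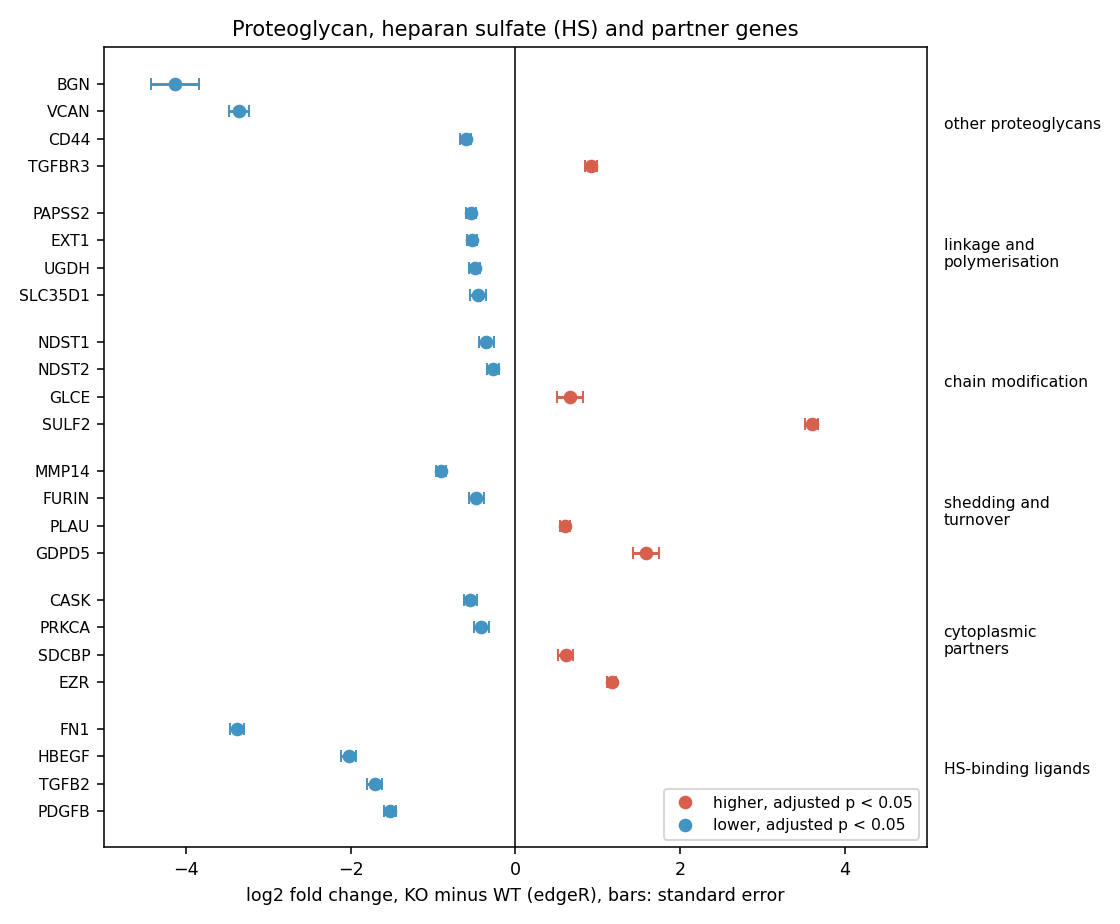
Log2 fold change of knockout minus wild type with its standard error (edgeR) for up to 4 genes of each list of proteoglycan, heparan sulfate and partner genes, those with the smallest p-values. SULF2 lies farthest right at 3.60, and BGN, FN1 and VCAN lie farthest left.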

How the data were processed

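The authors deposited raw counts per gene symbol for 9 RNA libraries, made with a stranded mRNA kit per the labels' protocols. STAR and HTSeq are named with hg19 (GRCh37) per the submitters' processing notes, while their versions and the strand setting are not given in the sources used here. FPKM values deposited by the authors served to compare genes per length. Their deposited tables of comparisons hold a mean signal of scaled counts, log2 fold changes with standard errors, and p-values, and the program behind them is not given in the sources used here.

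Counts were tested with edgeR 4.0.16 in R 4.3.3 (quasi-likelihood F test, robust dispersion, TMM scaling, a single model of all 9 libraries). The low-count filter was filterByExpr (minimum count 10, total 15), which left 13802 of 28514. P-values were adjusted by Benjamini-Hochberg across every tested gene and called under 0.05, and the scripts were tested on simulated data. Chi-square divided by its degrees of freedom was 5.37 to 21.8 between replicate pairs, so none was a duplicate. Alternatives were other scalings and filters, DESeq2 1.42.0, limma 3.58.1 on log2(FPKM + 0.1) and log2(FPKM + 1), fits to 2 groups, leaving out libraries or clone 21, and the clone as a block. By their labels the clones are shared between both knockout groups, which are thus paired: deviations from group means correlated at 0.38, 0.44 and 0.53 within clones and at -0.50 to 0.04 between them, over 10205 genes. Deviations from a group mean cancel within the group, so positive values within clones make those between clones negative on average.

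Members and gene lists were chosen with earlier results of these data known. Named beside the members were GPC2, GPC5 and PDCD10, the up to 4 genes per list with the smallest p-values in knockout against wild type, and the 2 nearest profiles of each tested member. HPSE, ADAM10, ADAM17, HSPG2, AGRN, EXT2, markers with values and list genes called with the clone block were named after their values were seen. No exon of another gene overlaps those of the 5 tested members in GENCODE 29. Intervals and floors from counts cover counting error only.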

Additional observations from a re-analysis of the deposited data

How the results depend on the processing

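The 4 syndecan genes kept their direction and stayed called against wild type in knockout and in knockout on fibronectin under each of the 19 alternatives run, and the members called ranged from 4 to 5 in either comparison, GPC1 being the gene that entered. For SDC2, which passed the filter through the wild-type libraries alone, these calls are a description only. GPC1 was called in 4 of 19 alternatives in knockout and 5 of 19 on fibronectin, and kept its direction in all, with log2 fold changes of -1.61 to -0.87 in knockout and -1.62 to -0.74 on fibronectin against wild type. It was also called with limma on log2(FPKM + 0.1) in knockout (adjusted p = 0.0430), with limma on log2(FPKM + 1) in knockout (0.0182) and on fibronectin (0.0269), and with only the 2 groups compared on fibronectin (0.0430). For SDC2 the log2 fold change in knockout was -1.41 with limma on log2(FPKM + 1), where the pseudocount exceeds its knockout level, and that of SDC1 was -0.38.

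For fibronectin in knockout clones, 0 members were called under every alternative run, where DESeq2 gave no adjusted p for SDC1 and SDC2. The count over all genes moved from 1 to 943 with DESeq2, 383 without a filter, 0 with limma on log2(FPKM + 1), 0 with only the 2 groups and 0 to 488 when 1 library was left out, the highest without clone 22 on fibronectin. With the replicate block for the clone it was 899, and the block changed no call of a member. The cause was not tested. SDC2 could not be tested in the fits to the 2 knockout groups alone, since it failed their filter. Depth limits SDC2, GPC3 and GPC5 in knockout clones, where each had at most 5 counts per library.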

Other observations

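SULF1, the paralog of SULF2 with the same 6-O-endosulfatase activity, split the knockout clones. It was chosen after its values were seen. Its level was 71.5 and 68.4 CPM in clones 21 and 22 on fibronectin and 66.0 and 58.1 CPM in the same clones without it, against 55.8, 51.0 and 50.7 CPM in wild-type lines 1, 2 and 3. Clone 23 had 2.10 CPM on fibronectin and 1.44 CPM without it, from 71 and 43 counts. In the fit to the 6 knockout libraries with clone and fibronectin as terms SULF1 differed among clones (edgeR adjusted p = 5.40e-18, log2 difference -5.28 for clone 23 over clone 21) and SULF2 was not called (adjusted p = 0.372). Clone 23 was also the clone with the highest GPC1.

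Some genes for ligands and receptors of heparan sulfate were higher in knockout clones while the syndecan genes were lower. The genes named here were picked after their values were seen. Of the 28 tested ligand and receptor genes 5 rose and 18 fell in knockout against wild type, where 23% of all tested genes rose and 27% fell. HGF, among the 5, passed the filter on low counts through the knockout libraries. FGF2, a growth factor that needs heparan sulfate to bind its receptor, averaged 156 ± 2.73 CPM in knockout on fibronectin, 167 ± 11.1 CPM in knockout and 85.6 ± 6.54 CPM in wild type (SD, n = 3 each), with an adjusted p of 6.45e-08 in knockout against wild type. FGFR1, one of its receptors, rose in knockout with a log2 fold change of 0.41 (adjusted p = 0.000298) and KDR, the main VEGF receptor gene, with 0.999 (adjusted p = 9.14e-07). COL18A1, a basement membrane collagen with heparan sulfate chains, fell in knockout with -1.03 (adjusted p = 0.000443) and NRP1, a VEGF co-receptor, with -0.60 (adjusted p = 0.000209).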
